A study of Mus musculus with 4 samples.

Results

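Messenger RNAs of 10 genes of DNA replication licensing and S phase (Mcm2, Mcm3, Mcm4, Mcm5, Mcm6, Mcm7, Cdc6, Pcna, Rrm1 and Rrm2) were compared between fibroblasts kept in tetracycline, which per the labels silences a transgene for the kinase PKR, and cells of that line 5 h after withdrawal of tetracycline to induce it. The arrays do not show the induction: the only probe set for Eif2ak2, the gene of PKR, read 643.3 and 663.6, and whether it reads the transgene was not tested. Members were all probe sets, groups of short DNA probes read together as a single value, whose only gene symbol in the platform annotation was one of these 10. There were 14 such probe sets among 13057, 10 on the first array type and 4 on the second, which is marked MB in the sample titles. All 10 genes had at least 1 probe set, and 8 had exactly 1. The genes are 10 of the 6137 named on the arrays.

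The cells were a stable line of NIH3T3, immortalised mouse fibroblasts, in which wild-type PKR sits behind a promoter that tetracycline silences. All 4 arrays carry RNA of this line. The control cultures were held in tetracycline at 1 µg/ml, in DMEM with 5% fetal calf serum. In the induced cultures tetracycline was withdrawn for 5 h, and their serum content is not given. Each condition was measured once on each array type, so the design has no replicate and no p-value was computed. The arrays number 4 in all, which limits the precision.

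Before a cell copies its DNA, the origin recognition complex and Cdc6 load the ring-shaped helicase of Mcm2 to Mcm7 onto origins, a step called licensing. In S phase the helicase is activated, the sliding clamp Pcna holds the polymerases on DNA, and ribonucleotide reductase, made of the subunits Rrm1 and Rrm2, supplies deoxynucleotides. Transcription of many of these genes rises at the entry into S phase under E2F factors, which pocket proteins of the Rb family hold in check. PKR, encoded by Eif2ak2, is activated by double-stranded RNA and phosphorylates the translation factor eIF2 alpha.

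The transcripts as a group read slightly lower after withdrawal, and the size differed greatly from one probe set to another. After withdrawal 12 of the 14 member probe sets were lower and 2 higher, with a median log2 change (withdrawn over tetracycline) of -0.32. One of the 12 was below the floor of measurement after withdrawal. Over all measured probe sets 51.1% were lower on the first array type and 47.5% on the MB type. Fibroblast marker genes had 12 of 16 probe sets lower and a median of -0.35, not adjusted for brightness. For probe sets of like brightness the median change was as low as -0.16 around these markers, against -0.07 to 0.12 around the members. The members with a log2 change below -0.5 were Cdc6, 1 of 2 probe sets of Mcm6 and 3 of 4 of Rrm2. For Cdc6 and 1 of these Rrm2 probe sets the size rests on withdrawn readings within the range of background controls. Mcm2, Mcm3 and Rrm1 read nearly the same in both conditions. Since whole cultures were measured, fewer cells in S phase and less RNA per cell cannot be told apart.

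Promoters of 4 genes are printed because these genes had a probe set with a log2 change below -0.5 (Cdc6, Mcm6, Rrm2) or hold overlapping E2F matches on opposite strands (Mcm5, Mcm6). Each sequence is the 250 bases before the RefSeq start site on GRCm38.p6, read 5′ to 3′ on the gene's strand. Capitals mark matches to an E2F motif or to CCAAT on either strand. The positions are chr1:128359706-128359955 (minus strand) for Mcm6, chr8:75109259-75109508 (plus strand) for Mcm5, chr11:98907901-98908150 (plus strand) for Cdc6 and chr12:24708004-24708253 (plus strand) for Rrm2.
Mcm6: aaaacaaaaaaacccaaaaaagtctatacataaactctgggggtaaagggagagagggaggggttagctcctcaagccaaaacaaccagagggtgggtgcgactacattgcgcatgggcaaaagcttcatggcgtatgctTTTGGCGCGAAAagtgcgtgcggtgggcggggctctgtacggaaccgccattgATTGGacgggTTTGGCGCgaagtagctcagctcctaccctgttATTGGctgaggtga
Mcm5: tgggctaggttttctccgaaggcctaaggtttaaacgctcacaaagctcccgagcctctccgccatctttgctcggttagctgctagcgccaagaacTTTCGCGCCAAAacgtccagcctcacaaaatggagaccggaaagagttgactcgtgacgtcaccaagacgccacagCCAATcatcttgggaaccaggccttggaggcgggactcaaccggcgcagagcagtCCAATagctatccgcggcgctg
Cdc6: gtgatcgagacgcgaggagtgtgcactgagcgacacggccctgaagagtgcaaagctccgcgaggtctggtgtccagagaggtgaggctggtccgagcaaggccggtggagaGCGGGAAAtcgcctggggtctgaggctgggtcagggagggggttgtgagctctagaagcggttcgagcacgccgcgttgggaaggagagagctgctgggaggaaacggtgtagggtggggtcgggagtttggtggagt
Rrm2: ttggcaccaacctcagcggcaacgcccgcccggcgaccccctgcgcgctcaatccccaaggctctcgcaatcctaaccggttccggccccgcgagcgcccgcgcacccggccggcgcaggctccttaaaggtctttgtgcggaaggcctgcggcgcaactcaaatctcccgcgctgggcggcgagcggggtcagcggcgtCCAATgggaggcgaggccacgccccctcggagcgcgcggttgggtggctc

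The E2F motif was searched as any of TTTCCCGC, TTTGGCGC, TTTCGCGC and TTTGCCGC, and the CCAAT box, bound by the factor NF-Y, as CCAAT, both on either strand. The RefSeq table held 10 promoters for 9 of the 10 genes, with 2 start sites for Mcm7. Mcm4 was not among them. An E2F motif was found in 4 of these 10 promoters, those of Mcm5, Mcm6, Cdc6 and 1 start site of Mcm7, against 1.86% of all 32851 promoters of the table. Among the 21262 promoters of protein-coding genes the share was 2.35%. In Mcm6 a TTTGGCGC and a reversed TTTCGCGC overlap between 110 and 99 bases before the start, and a further TTTGGCGC lies 47 to 40 bases before it. In Mcm5 the same pair of words overlaps between 153 and 142 bases before the start. The CCAAT box was in 9 of the 10 member promoters, in 33.8% of all promoters and in 35.4% of those of protein-coding genes.

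**Figure D1:**
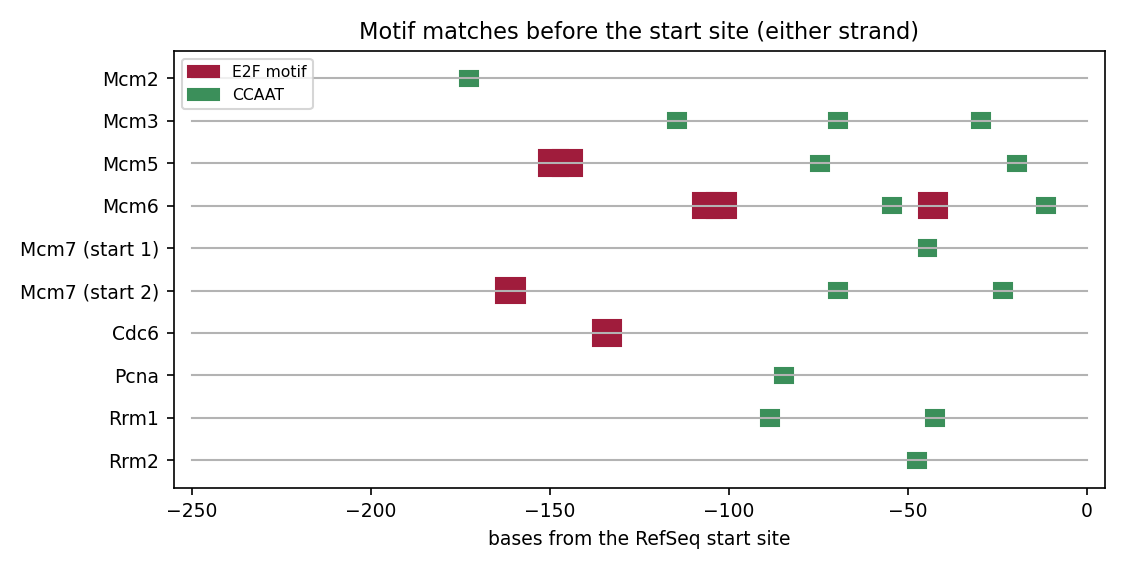
Matches to the E2F motif (red) and the CCAAT box (green) in the 250 bases before each RefSeq start site of the member genes, by distance from the start in bases. E2F matches stand in 4 of 10 promoters and CCAAT matches in 9 of 10, all but that of Cdc6.

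With the 50 bases after the start site included, a window chosen after the data were seen, 5 of the 10 promoters held an E2F motif against 2.26% of all promoters, and the additional one was that of Mcm3. For promoters of protein-coding genes the share in this window was 2.85%. All probe sets of the 4 genes with an E2F match before the start were lower after withdrawal, as were those of Mcm2, Pcna and Rrm2, which had none there. The genes with a higher reading, Mcm3 and Rrm1, had none there either. Genes outside these 10 with an E2F match were described in the same way, with no test. They were set beside all genes without a match, among which Mcm2, Mcm3, Pcna, Rrm1 and Rrm2 were kept. On the first array type the 134 measured probe sets of other genes with an E2F match had a median log2 change of 0.00, with 50.7% of them lower, 8 at least 2-fold lower (5.97%) and 3 at least 2-fold higher. The 3015 measured probe sets of genes without a match had a median of -0.01, with 50.7% lower, 109 at least 2-fold lower (3.62%) and 139 higher. On the MB type 51 probe sets of other genes with a match had a median of 0.02, with 3 at least 2-fold lower and 1 higher, and 1108 without one had a median of -0.01, with 66 lower and 88 higher. At the control floor, 2 of 113 first-type probe sets of other genes with a match were at least 2-fold lower (1.77%) and 3 higher. Without a match 36 of 2479 were lower (1.45%) and 45 higher. On the MB type 0 of 40 with a match passed 2-fold, against 8 lower and 20 higher of 757 without. A match describes letters in a window and shows no binding.

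Intensities are linear and in arbitrary units, as deposited, and only readings of the same probe set were compared. A reading was taken as measured above a floor, the 25th percentile of all values of its array type, which was 130 for the first type and 80 for MB. A stricter control floor was the 95th percentile of 39 probe sets for bacterial and yeast sequences (281.5 and 340.4). Of the 14 member probe sets 13 were above the floor on both arrays of their type, and 12 above the control floor. The exceptions were Cdc6 and 1 of the 4 probe sets of Rrm2. For scale, each change is set beside the spread, a robust SD of the log2 changes among the 200 probe sets closest to it in brightness, its neighbours, on the same array type. It mixes probe noise with real differences and is no replicate error.

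**Figure D2:**
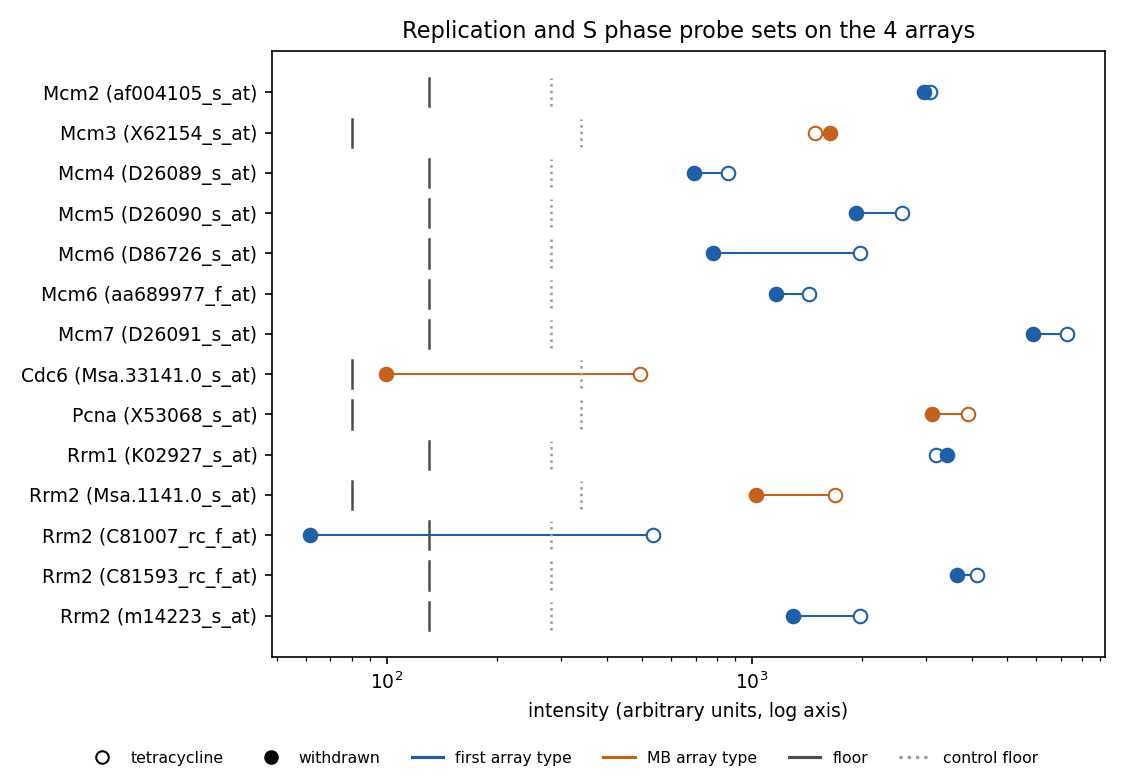
Intensity (arbitrary units, log axis) of each of the 14 member probe sets with tetracycline (open circles) and after withdrawal (filled circles), blue for the first array type and orange for the MB type. The solid and dotted ticks in each row are the floor and the control floor of that type; only Cdc6 and the Rrm2 probe set C81007_rc_f_at cross the control floor.

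Cdc6, the ATPase that brings the helicase to origins, was read by 1 probe set on the MB type. Its intensity was 491.9 with tetracycline and 99.7 after withdrawal, a log2 change of -2.30 (4.93-fold lower). Of the measured probe sets on this array type, 0.367% had a lower change. The withdrawn reading lay just above the floor of 80 and below the control floor of 340.4. Against the control floor the decrease is therefore at least 1.44-fold. Probe sets of this brightness varied widely, with a spread of 1.38, and the change lay 1.67 spreads below the median of its neighbours in level.

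Mcm6, a subunit of the replicative helicase, was read by 2 probe sets on the first array type, which gave unequal changes. The probe set D86726_s_at read 1971.9 with tetracycline and 781.1 after withdrawal, a log2 change of -1.34 (2.52-fold lower). Both readings were well above the control floor, the spread was 0.38, and 1.5% of measured probe sets on the type had a lower change. It was the only member probe set with a difference of at least 2-fold between values above the control floor. The other probe set, aa689977_f_at, read 1429.2 and 1165.3, a log2 change of -0.29, which is 0.972 spreads below its neighbours. In the Affymetrix naming scheme the suffix f marks probes shared within a sequence family, and whether both sets read the same transcripts was not tested. Another suffix, s, is carried by 11 of the 14 member probe sets, D86726_s_at among them. Whether those read only 1 gene was not tested either.

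The other helicase subunits differed less. Mcm5 read 2581.8 with tetracycline and 1923.4 after withdrawal, a log2 change of -0.42 with a spread of 0.35. Mcm4 read 861.5 and 691.7 (log2 change -0.32, spread 0.43), and Mcm7 read 7282.5 and 5867 (log2 change -0.31, spread 0.32). Of these 3 subunits only Mcm5 lay more than 1 spread below its neighbours, at 1.25 spreads. Mcm2 read 3079.4 and 2959.8, a log2 change of -0.06 that was nearly equal to the median of its neighbours (-0.04). Mcm3, the only subunit read on the MB type, was slightly higher, with 1486.5 and 1631, a log2 change of 0.13 with a spread of 0.36. Across the 6 subunits 6 of 7 probe sets were lower and 1 was at least 2-fold lower. The matching shares over everything measured were 51.1% and 4.02% for the first array type, and 47.5% and 6.65% for MB. Of the 7, only Mcm5 and the Mcm6 probe set D86726_s_at lay more than 1 spread below their neighbours.

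Pcna, the sliding clamp, was measured on the MB type and went from 3908.9 to 3109.3. Its log2 change of -0.33 was 0.943 spreads below its neighbours, so it did not stand apart from probe sets of similar level.

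The subunits of ribonucleotide reductase differed from each other. Rrm1, the large subunit, read 3183.7 with tetracycline and 3428.7 after withdrawal, a log2 change of 0.11 with a spread of 0.31. Rrm2, the small subunit, whose abundance changes with the cell cycle, had 4 probe sets, all lower after withdrawal. On the first type m14223_s_at read 1976.2 and 1294.8 (log2 change -0.61, spread 0.34). Its only probe set on the MB type read 1687.1 and 1023.1 (log2 change -0.72, spread 0.37). These probe sets, on separate pairs of arrays, differed from each other by 0.11 on the log2 scale. The labels do not say whether both array types received the same RNA, so these readings are not replicates of the condition. The probe sets lay 1.86 and 2.08 spreads below their neighbours.

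The remaining probe sets of Rrm2 carry the family suffix f and gave the smallest and the largest change of the gene. C81593_rc_f_at read 4143.8 with tetracycline and 3651.2 after withdrawal, a log2 change of -0.18. C81007_rc_f_at read 536.7 and 61.5, the latter below the floor, so its decrease is a bound of at least 4.14-fold against the floor and at least 1.91-fold against the control floor. The spread at its level was 1.65. The direction was shared by all 4 readings of Rrm2, and its size was not.

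**Figure D3:**
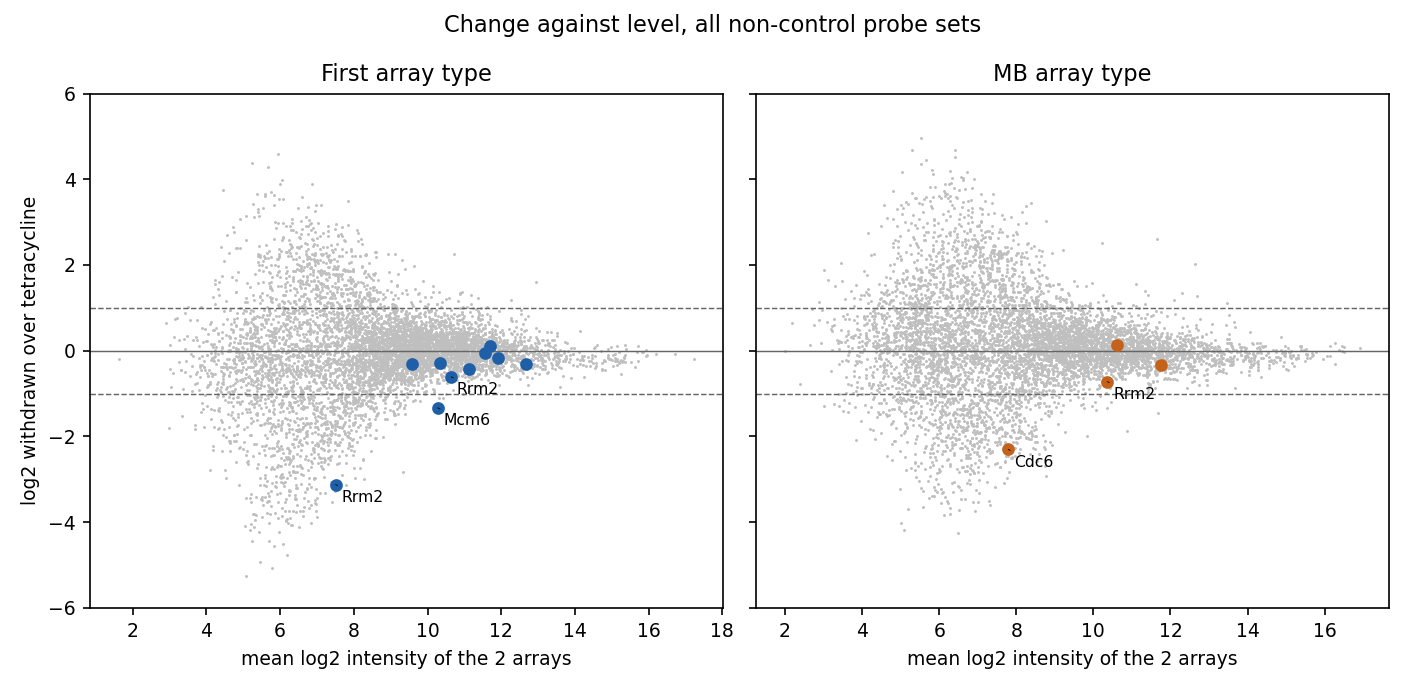
Log2 change (withdrawn over tetracycline) against mean log2 intensity for all non-control probe sets (grey) and the member probe sets (coloured) on the first and the MB array type; dashed lines mark 2-fold. Members with a log2 change below -0.5 are named: Mcm6 (-1.34) lies at the lower edge of the grey band at its level, while Cdc6 (-2.30) and the lowest Rrm2 probe set lie at levels where the band is wide.

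How far probe sets of 1 gene usually differ was taken from all genes with more than 1 probe set above the control floor. This background was added after the data were seen. On the first type 391 such pairs, from 310 genes, differed in log2 change by a median of 0.29, and the 90th percentile was 0.82. The 2 probe sets of Mcm6 differed by 1.04, and 4.35% of the pairs were at least as far apart. The Rrm2 probe sets m14223_s_at and C81593_rc_f_at differed by 0.43, and 34.3% of the pairs were at least as far apart. Across array types 207 pairs had a median difference of 0.27, and 78.3% were at least as far apart as the 0.11 between m14223_s_at and the MB probe set of Rrm2. C81593_rc_f_at and that MB probe set differed by 0.54, and 21.3% were at least as far apart. The Rrm2 probe set C81007_rc_f_at, below the control floor after withdrawal, was left out of these pairs. The same direction was shared by 58.8% of pairs on the first type and 58.9% across types.

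**Figure D4:**
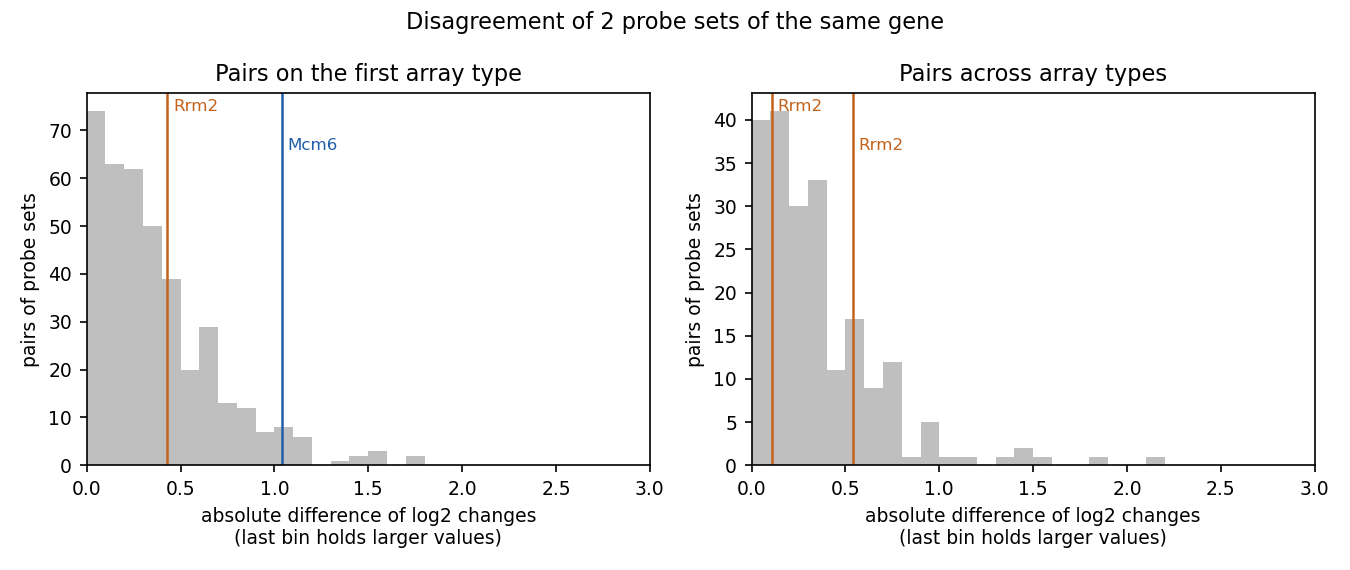
Number of pairs of probe sets of the same gene by the absolute difference of their log2 changes, for pairs on the first array type (left) and across types (right), all above the control floor. Vertical lines mark the member pairs: Mcm6 at 1.04 and Rrm2 at 0.43 on the left, and Rrm2 at 0.11 and 0.54 on the right.

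Counts of the members were read against all probe sets of the same arrays. On the first type 8 of 9 measured member probe sets were lower to any extent, against 51.1% of all 4402 measured, and the members' median log2 change was -0.31 against -0.01. At least 2-fold lower was 1 of 9, the Mcm6 probe set D86726_s_at, against 4.02% of all at the floor and 1.29% at the control floor. At least 2-fold higher were 0 of 9 members, against 4.36% of all at the floor and 1.88% at the control floor. On the MB type 3 of 4 member probe sets were lower to any extent, against 47.5% of all 4360 measured, with medians of -0.53 and 0.02. At least 2-fold lower was 1 of 4, Cdc6, against 6.65% of all. At the control floor, where Cdc6 drops out, this was 0 of 3, against 0.767%, and the members' median was -0.33. None of the 4 was at least 2-fold higher, against 8.46% at the floor and 1.97% at the control floor. With 9 and 4 probe sets these counts describe single readings.

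The changes of Mcm4, Mcm7 and the Mcm6 probe set aa689977_f_at have the size of changes in abundant transcripts of the same arrays. The 6 probe sets of the array's own controls for beta-actin and Gapdh had log2 changes of -0.21 to -0.38 for the first type and -0.02 to -0.23 for MB. All other member probe sets, Pcna (-0.33) on MB among them, lay outside the control range of their type. The controls were far brighter than any member, with 29574.3 or more on the first type against 7282.5 for the brightest member reading, that of Mcm7. Fibroblast markers, which define the labelled cell type, were present. All 10 marker genes had a probe set, and 16 of 17 probe sets were above the floor on both arrays, with the median of -0.35 given above. Their summed intensity went from 60744.4 to 49160.9 for the first type and from 190733 to 155132.9 for MB. Whether this has a part in the members' changes near -0.3 was not tested. Of 23 probe sets for leukocyte, epithelial, endothelial and muscle markers, 12 were above the floor on both arrays and 5 above the control floor, those of Ptprc, Krt8, Myog and Ckm, against 16 of the 17 fibroblast probe sets at either floor. All 3 measured leukocyte probe sets were lower (median -1.13), as was the only measured endothelial one, Tie1 (-2.16), but of these 4 only Ptprc exceeded the control floor in both conditions.

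The neighbouring steps of replication were described with 5 further gene lists. Their counts stand against 51.1% of all measured probe sets lower on the first type and 47.5% on MB. At least 2-fold lower were 4.02% and 6.65% of all at the floor, and 1.29% and 0.767% at the control floor. At least 2-fold higher were 4.36% and 8.46% at the floor, and 1.88% and 1.97% at the control floor. Origin recognition, licensing control and helicase activation genes went both ways. Of 10 measured probe sets, which read only 6 of 19 listed genes, all on the first type, 6 were higher and 4 lower, against 51.1% lower among all. None passed 2-fold, and the median log2 change was 0.29. The largest differences were those of the origin recognition subunits Orc2 (-0.77) and Orc5 (0.44) and of Cdc45 (0.43), a cofactor of the active helicase. A second Orc2 probe set gave -0.13 and a second Cdc45 probe set 0.25. Cdt1, which loads the helicase together with Cdc6 and was looked up after its values were seen, read 1171.7 with tetracycline and 1572.5 after withdrawal, a log2 change of 0.42.

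Polymerases and fork proteins had a median log2 change of -0.22 over 27 measured probe sets, 17 of them lower and none past 2-fold. A further probe set, for the chromatin assembly subunit Chaf1b, was below the floor after withdrawal (324.7 to 52.6), at least 2.5-fold lower against the floor and at least 1.15-fold against the control floor. The largest differences above the control floor were Rnaseh2a (-0.76), a subunit of the nuclease that cuts RNA in RNA-DNA hybrids, topoisomerase I, Top1 (0.73), and Fen1 (-0.73), the nuclease that trims Okazaki fragments. Prim1, the primase subunit that makes RNA primers, and Pold2, a polymerase subunit, were looked up after their values were seen. Prim1 had a change of -0.72, and the 2 probe sets of Pold2 went opposite ways (-0.51 and 0.70).

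Nucleotide synthesis genes, the pathway of Rrm1 and Rrm2, were lower in 14 of 17 measured probe sets, with a median log2 change of -0.32. Among all measured probe sets 51.1% were lower on the first type and 47.5% on MB. At least 2-fold lower were Umps (1043 to 433.8, -1.27), which completes UMP synthesis, and Impdh1 (580.7 to 245.4, -1.24), which acts in GMP synthesis. A second Umps probe set, on the MB type, gave -0.35, and the withdrawn reading of Impdh1 was below the control floor. Thymidylate synthase, Tyms, read 1904 and 1245.1 (-0.61) on the first type and was below the floor on the MB type. Tyms was looked up after its values were seen. Shmt1, not among the 17, had an MB probe set that exceeded the floor only after withdrawal (25.4 to 131.4). Its increase was at least 1.64-fold against the floor, but both readings were under the control floor.

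Regulators of the S phase programme went both ways. Of 19 measured probe sets of E2F, pocket protein and cyclin-CDK genes, 10 were lower and 9 higher, with a median log2 change of -0.11. The pocket protein genes Rbl1 (438.3 to 155.9, -1.49) and Rbl2 (515.5 to 249.8, -1.05) were at least 2-fold lower, with withdrawn readings below the control floor. For E2f1, looked up after its values were seen, 1 probe set was lower (-0.70) and the other higher (0.15). The S phase cyclins Ccne1 (-0.11) and Ccna2 (-0.27), also looked up afterwards, differed by less than their spreads of 0.37 and 0.30. A Cdkn1b probe set on the MB type, for the CDK inhibitor p27, was below the floor with tetracycline (21.6 to 257.3), at least 3.22-fold higher against the floor but under the control floor on both arrays. A second Cdkn1b probe set on the MB type was below the floor in both conditions (49.3 to 19.7). The one on the first type, above the control floor in both conditions, read 2229.1 and 1950.5 (-0.19).

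Genes of mitosis, the phase after replication, had a median log2 change of 0.07 over 26 measured probe sets, 16 of them higher and 10 lower. Among these only Nusap1, a spindle protein, passed 2-fold (905.1 to 325.5, -1.48). Below the floor on 1 array were the spindle checkpoint kinase gene Ttk (113.3 to 420.6), at least 3.24-fold higher against the floor and 1.49-fold against the control floor, and an Incenp probe set (261.5 to 115.1), at least 2.02-fold lower against the floor and under the control floor on both arrays. A second Incenp probe set gave 0.08. Also below the floor after withdrawal only were a Bub3 probe set (175.6 to 23.6) and a Bub1 probe set (203.6 to 55.7). Against the floor they were at least 1.35-fold and 1.57-fold lower, but both were under the control floor on both arrays. Other probe sets gave 0.45 and 0.23 for Bub3 and -0.21 for Bub1. The members and the nucleotide synthesis genes both had a median of -0.32, close to that of the fibroblast markers (-0.35). Differences between the groups were not tested, since each rests on 1 array per condition and type.

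**Figure D5:**
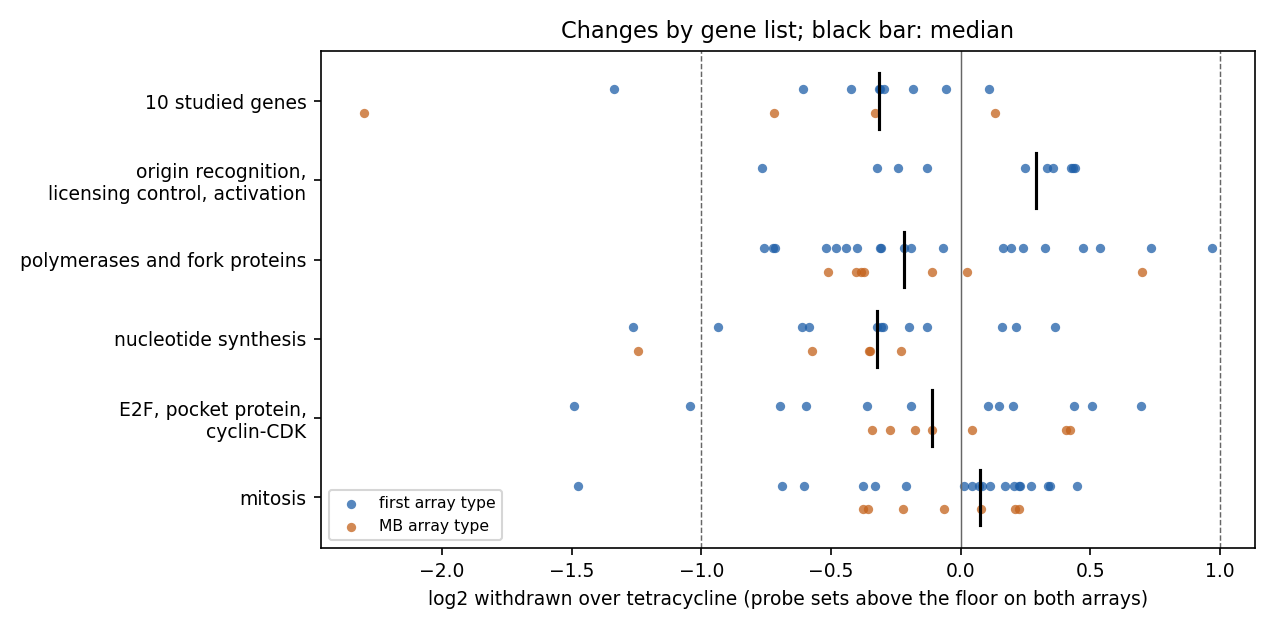
Log2 change (withdrawn over tetracycline) of every probe set above the floor on both arrays, for the 10 studied genes and 5 lists of related genes, blue for the first array type and orange for the MB type. Black bars are medians over both types: -0.32 for the studied genes, 0.29 for origin and licensing control, -0.22 for fork proteins, -0.32 for nucleotide synthesis, -0.11 for E2F and cyclin-CDK genes and 0.07 for mitosis; dashed lines mark 2-fold.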

How the data were processed

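The authors deposited a table per array type with a linear intensity for every probe set on each array. How the scans were turned into these values, and with which software, is not given in the sources used here. Trimmed means (2% off each end) of the 6523 and 6534 non-control probe sets were 999.9 and 1000.4 on the first type and 996.6 and 997.3 on the MB type, so the values were used as deposited. Gene symbols came from the platform annotation, updated by Entrez identifier through the RefSeq table of GRCm38.p6. The 61 control probe sets per type stayed out of all counts.

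The change is log2 of withdrawn over tetracycline, with no pseudocount, and a difference was counted at 2-fold between values above the floor. Named are all members and, from each other list, the probe sets past 2-fold above the floor or, where none was, the 3 largest changes above the control floor. The members, lists and alternatives were chosen with earlier results of these data known. Counting was tested on simulated arrays. Alternatives were median ratio, quantile and loess (span 0.4) scaling, other floors, 1.5-fold and 3-fold limits, and 1 value per gene. Python 3.11.15, numpy 2.4.6, pandas 2.3.3, statsmodels 0.14.6 and matplotlib 3.10.9 were used.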

Additional observations from a re-analysis of the deposited data

How the results depend on the processing

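With median ratio, quantile and loess scaling each of the 14 member probe sets kept its direction and moved by less than its spread, and the members' median log2 change stayed between -0.26 and -0.33 on the first type and between -0.54 and -0.58 on the MB type. At the control floor the MB median was -0.33 in place of -0.53. Counts of members at least 2-fold lower were 1 on each type and moved as follows. On the first type the count was 2 without a floor, 2 at 1.5-fold and 0 at 3-fold. On the MB type it was 0 at the control floor, since Cdc6 drops out, and 2 at 1.5-fold. Over both types 2 probe sets were lower by 2-fold, but 1 gene, Cdc6 both with the median of probe sets per gene, where Mcm6 is at -0.82, and with the probe set brightest by mean log2 level, where it is at -0.29. For the E2F list on the first type the median of -0.04 became 0.00 with median ratio scaling and 0.10 at the control floor, and for mitosis genes on the MB type -0.06 became 0.01 at the control floor and -0.12 to -0.14 under the other scalings. Of the values of the other lists under these alternatives, 99 kept their direction and stayed within the spread of single probe sets (medians) or within 1.5 times (counts), 6 were counts that moved by over 1.5 times or from or to 0, and 3 were the sign changes just given. No paired analysis was possible because each group has 1 array. Depth of signal limits Cdc6 and the lowest Rrm2 probe set, whose withdrawn readings are near or under background controls.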
